A study of Mus musculus with 3 samples.

Results

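In 4 short stretches of the mouse autosomes, the peaks of an Nrf2 chromatin immunoprecipitation and sequencing (ChIP-seq) experiment lay crowded together. The stretches were chosen by the density of peaks in these same lists, as seen in earlier results. They span 145 to 148 Mb of chromosome 4, 19 to 20 Mb of chromosome 8, 65 to 67 Mb of chromosome 13 and 38 to 39 Mb of chromosome 17 in the mm9 build, and every peak whose centre lay inside was a member. In replicate 1, 269 of 2892 peaks (9.30%) were members, and in replicate 2, 257 of 3593 were (7.15%). Because density chose the stretches, their peak numbers and close spacing are a description and are not tested. Width, score and overlap come from the same peaks, so they too are given as descriptions, and no difference from other peaks was tested.

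The peaks came from C2C12 cells, an established wild-type mouse myoblast line that fuses into myotubes when serum is lowered. The myotubes had differentiated for 72 h and then received CDDO-Im, a synthetic triterpenoid that activates Nrf2, at 100 nmol/L for 3 h, and chromatin was precipitated with an antibody against Nrf2. The labels give 2 ChIP replicates and 1 input from cells treated in the same way, and they name no untreated cells, so the lists show where signal lay under treatment and not what treatment changed. Nothing in the labels says that the replicates were separate cultures. Sequencing depth is unknown for both lists, and the intervals given with shares reflect counting error alone.

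Nrf2 is held low by Keap1 in resting cells and, once released, pairs with small Maf proteins at antioxidant response elements to switch on detoxification genes. Tandemly copied genes and repeats are a known difficulty for this assay, since reads from near-identical copies can be placed at more than 1 copy, and copies missing from an assembly can add their reads to those present. Mouse chromosomes 4 and 13 are known for large clusters of copied zinc finger genes, whose products bind DNA and silence transposable elements. A gene, repeat or sequence file of the mm9 build was not used here, so no peak was assigned to a gene or repeat, no sequence is shown, and the part of copied sequence in the peaks was not tested.

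The crowded peaks formed islands, some ends of which lay inside a stretch while others were cut by its bounds. On chromosome 4 the peaks of replicate 1 ran from 145005658 to 147187102 and those of replicate 2 from 145005482 to 147189790. Both lists were empty from there to 148 Mb, and the next peak beyond, present in both lists, lay 545 kb above the upper bound. The lower bound, in contrast, cut through the crowding. A shared peak 1.00 kb below it in replicate 1 and 1.02 kb below it in replicate 2 (scores 143 and 166) lay just outside, and the first shared peak inside, 5.92 and 5.89 kb above it, scored 147 and 102.

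On chromosome 8 the first peak lay at 19652552 in replicate 1 and at 19652501 in replicate 2, and nothing lay between 19 Mb and there. Within 1 Mb below the lower bound replicate 1 had 0 peaks and replicate 2 had 2, the nearest 63.6 kb below it. The upper bound fell inside the island. The last peak inside had a centre 1.58 and 1.59 kb below the bound (scores 153 and 125), and the first outside had its centre 0.368 and 0.342 kb above it (scores 288 and 266). In all, 8 peaks of replicate 1 and 6 of replicate 2 lay within 1 Mb above the bound. On chromosome 17 the peaks lay between 38634901 and 38893031 in replicate 1 and between 38548850 and 38781807 in replicate 2, and 0 peaks of either list lay within 1 Mb outside the bounds. On chromosome 13 they ran from 65432655 to 66899583 and from 65431416 to 66897779. Within 1 Mb outside those bounds replicate 1 had 0 peaks and replicate 2 had 1, a peak of score 55.5 at 478 kb below.

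**Figure D1:**
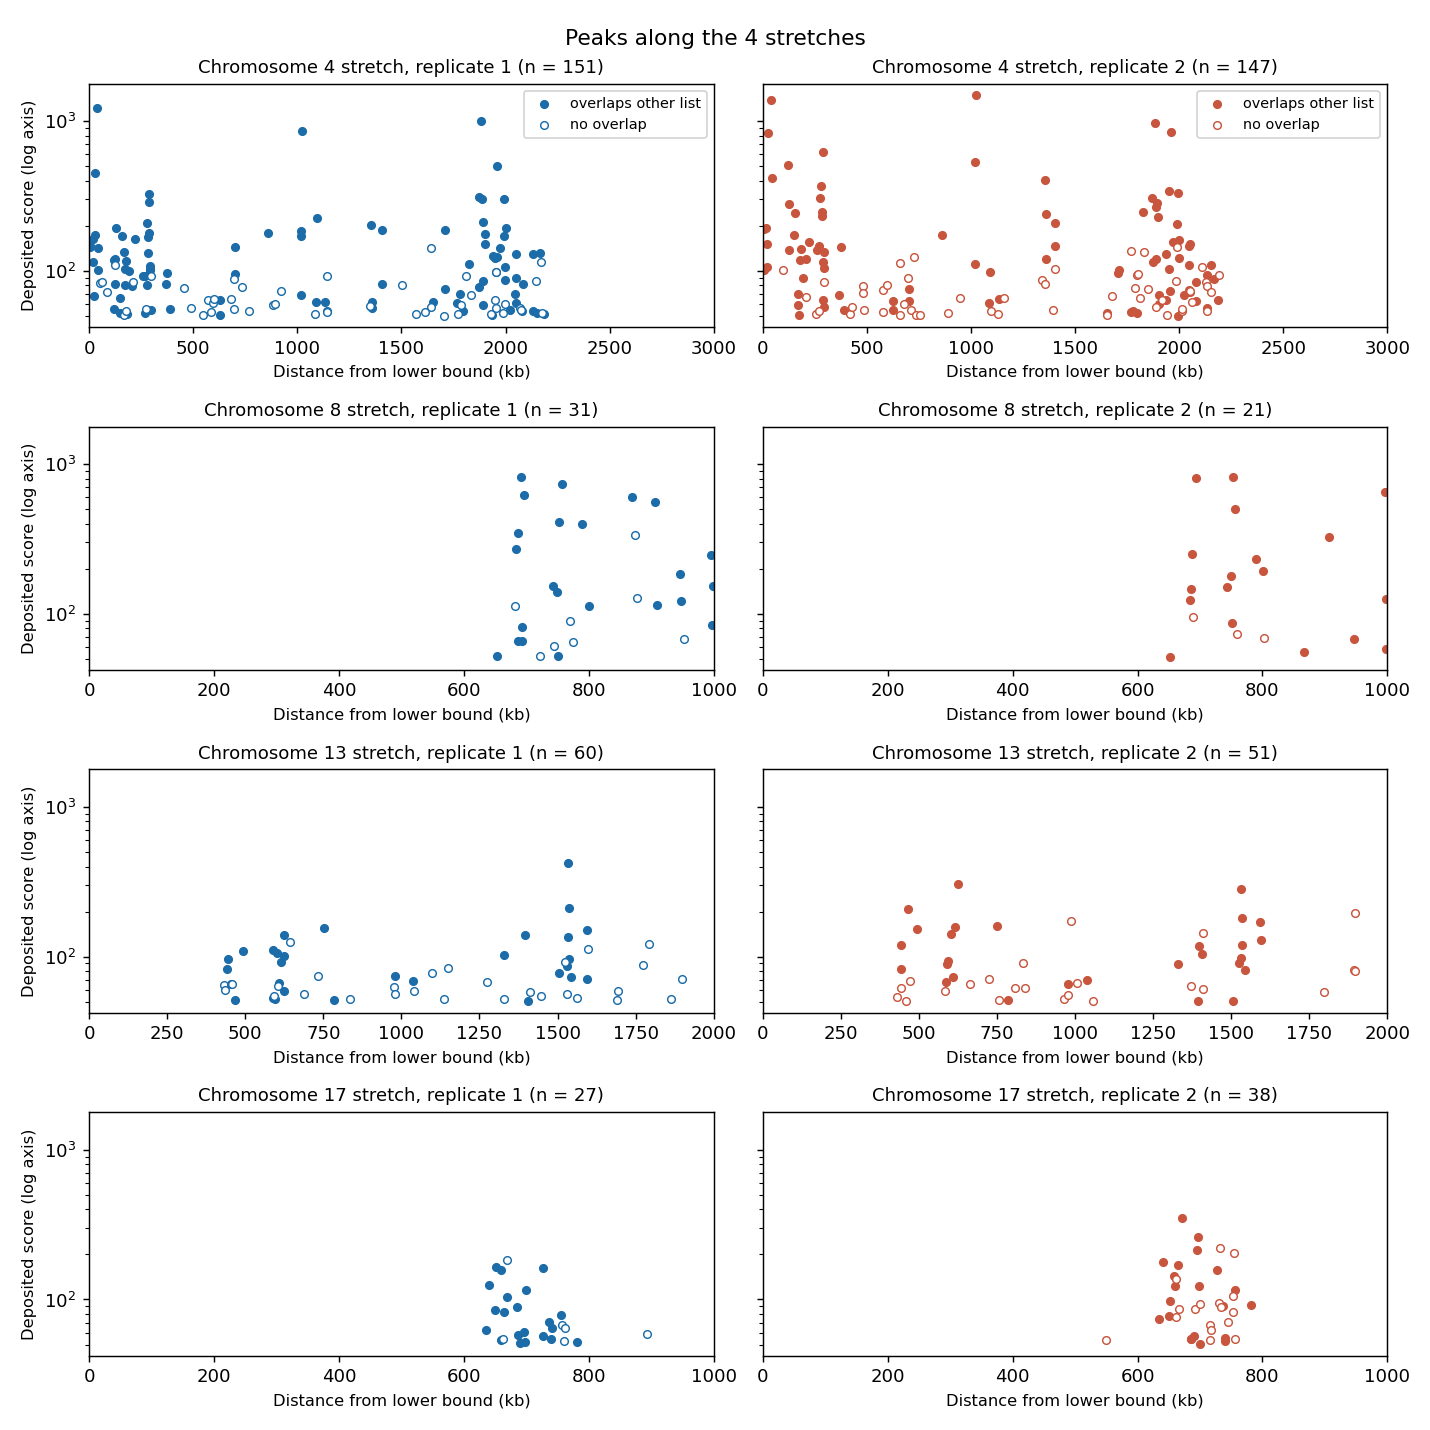
Each point is a peak, placed by its distance from the lower bound of its stretch (kb) and by its deposited score (log axis), with replicate 1 on the left and replicate 2 on the right. Filled points overlap a peak of the other list. Both lists show the empty end of the chromosome 4 stretch, the empty start of the chromosome 8 stretch and the narrow island on chromosome 17.

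Within the islands the crowding was uneven. It is described by blocks, which are series of 100 kb windows with at least 5 peaks in both lists. Every block thus lies in both lists by definition, and no recurrence is read from that. On chromosome 4 the largest blocks lay at the ends of the island. The block from 145.0 to 145.3 Mb held 49 peaks of replicate 1 and 38 of replicate 2. The block from 146.7 to 147.2 Mb held 55 and 62. Together these blocks held most of the 151 and 147 peaks of the stretch, while the windows of 100 kb between them held at most 7 peaks in replicate 1 and 6 in replicate 2. Chromosome 17 had a single block, from 38.6 to 38.8 Mb, with 26 of 27 peaks of replicate 1 and 37 of 38 of replicate 2. Chromosome 13 was looser. Its 3 windows with at least 5 peaks in both lists started at 65.4, 65.6 and 66.5 Mb and held 8, 9 and 14 peaks of replicate 1 and 8, 5 and 9 of replicate 2.

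By the distance between centres, neighbouring peaks were closest on chromosome 17 and farthest apart on chromosome 13. The median distance between the centres of neighbours on chromosome 17 was 3696 bp in replicate 1 (26 distances) and 1782 bp in replicate 2 (37 distances). On chromosome 8 it was 3947 bp and 4087 bp, and on chromosome 4 it was 4279.8 bp and 5050 bp. On chromosome 13 it was 8613 bp and 9306 bp. The first places in this order do not stand apart, since in replicate 1 the medians of chromosomes 17, 8 and 4 spanned 583.75 bp, while those of chromosome 17 differed by 1914 bp between replicates. The order also depended on the measure. From the end of a peak to the start of the next, chromosome 8 with its wide peaks had the smallest median gap in both lists, 1146 bp and 853.5 bp, against 3191 bp and 1011 bp on chromosome 17. When peaks scoring below 100 were left out, the mean of the lists' median centre distances was 5570.6 bp on chromosome 8, 5890.4 bp on chromosome 4 and 6163 bp on chromosome 17. The lists differed in this. On chromosome 17 the median was 9962 bp in replicate 1, where 7 peaks remained, against 4519 bp on chromosome 8 and 6694.5 bp on chromosome 4. In replicate 2 it was 2363.5 bp with 14 peaks, still the smallest, against 6622 bp and 5086 bp. Chromosome 13 had the largest value by each of these measures. Replicate 2 placed 11 more peaks on chromosome 17 than replicate 1, and its closer spacing there moved with that number.

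Runs of peaks, in which each centre lay within 10 kb of the next, held most members. On chromosome 17, 23 of 27 peaks of replicate 1 (85.2%) and 36 of 38 of replicate 2 (94.7%) were in runs of 3 or more. On chromosome 4 the shares were 71.5 and 63.3%, on chromosome 8 they were 74.2 and 66.7%, and on chromosome 13 they were 50 and 60.8%. The longest run of chromosome 4 sat at the same place in both lists, with 16 peaks from 145261132 to 145296551 in replicate 1 and 15 from 145254548 to 145295723 in replicate 2. The longest run of chromosome 13 did so too, with 11 peaks from 65587359 to 65625417 and 8 from 65581734 to 65624754. On chromosomes 8 and 17 the longest runs of the lists were at different places.

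**Figure D2:**
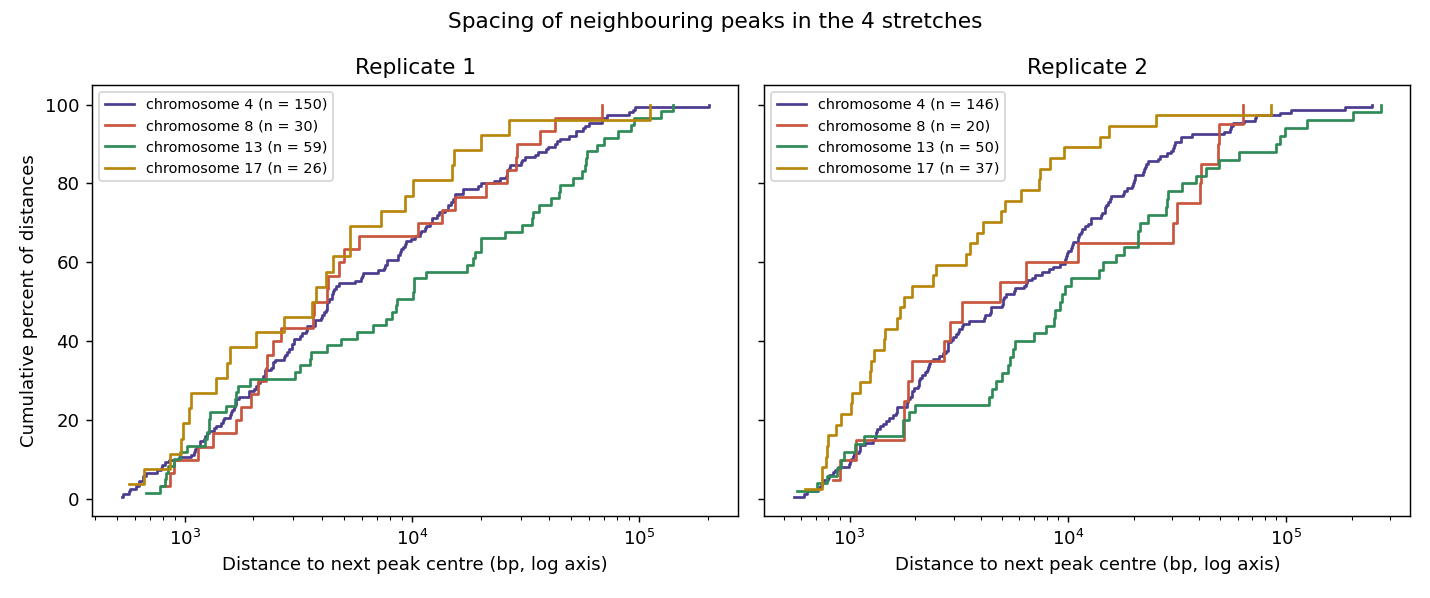
Cumulative percent of the distances between neighbouring peak centres (bp, log axis) in each stretch, by replicate. The chromosome 17 curve lies farthest left in replicate 2, and the chromosome 13 curve has the largest median in both panels.

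Distances that recur were looked for among all pairs of peaks 10 to 300 kb apart, in bins of 1 kb. Only the fullest bins and the counts per bin were compared. Multiples of a distance were not examined, nor were distances below 10 kb, where most neighbours lay. Even spacing of copies was thus not tested. On chromosome 4 the fullest of the 290 bins in replicate 1 was 20 to 21 kb, with 20 pairs against a mean of 10.5 ± 3.69 per bin (SD over bins), and the same bin of replicate 2 held 13. The fullest bin of replicate 2 was 119 to 120 kb, with 21 pairs against 10.3 ± 3.65, and held 15 in replicate 1. On chromosome 17 the fullest bin of replicate 1 was 27 to 28 kb, with 7 pairs against 1.07 ± 1.55, and replicate 2 had 10 pairs in it. The fullest bin of replicate 2 was 36 to 37 kb, with 14 pairs against 2.10 ± 3.15, and replicate 1 had 5 in it. Over the 290 bins the counts of the lists had a Pearson's r of 0.79 on chromosome 17, 0.48 on chromosome 4, 0.35 on chromosome 8 and 0.33 on chromosome 13 (Spearman's rho 0.76, 0.48, 0.34 and 0.27). Nearly all chromosome 17 peaks lay from 38.6 to 38.8 Mb, so its bins of long distance held few pairs in either list. Its means per bin and its r thus depend on the length of the island too, and that part was not separated. Ties were taken at the shorter distance. In all 4 stretches 0 of the bins that were fullest in one list, ties included, were fullest in the other, so no single distance led in both. Bins share peaks, and most members of each list overlapped a peak of the other by at least 1 bp, so this comparison describes the lists only.

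Width set the chromosome 8 stretch apart from the others in value. The median peak there was 1777 bp wide in replicate 1 and 1542 bp in replicate 2, against 455.5 bp and 612 bp over the whole lists. A width of at least 1000 bp was reached there by 22 of 31 peaks of replicate 1 and 15 of 21 of replicate 2, beside 9.09 and 12.0% of the whole lists. A width of at least 2000 bp was reached by 14 of 31 and 10 of 21, beside 2.32 and 3.59% of the lists. The widest peak of each whole list was a member here. In replicate 1 it ran from 19864890 to 19872648 (7759 bp, score 602), and in replicate 2 from 19689929 to 19698021 (8093 bp, score 809.7).

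Peaks on chromosome 4 were mixed in width, with medians of 528 bp and 762 bp and maxima of 4806 bp (146020851 to 146025656, replicate 1) and 5995 bp (145146916 to 145152910, replicate 2). At least 1000 bp was reached by 30 of 151 peaks of replicate 1 and 49 of 147 of replicate 2. On chromosomes 13 and 17 the medians lay near those of the lists. They were 442.5 bp and 419 bp in replicate 1 and 603 bp and 673 bp in replicate 2, and at least 1000 bp was reached by 3 of 60 and 1 of 27 in replicate 1 and by 7 of 51 and 8 of 38 in replicate 2. The widest peaks of chromosome 13 were 1226 bp (66531967 to 66533192, replicate 1) and 1978 bp (65622777 to 65624754, replicate 2). Those of chromosome 17 lay next to each other and did not overlap, 1157 bp from 38667733 to 38668889 in replicate 1 and 2530 bp from 38669484 to 38672013 in replicate 2. Crowded peaks elsewhere on chromosomes 2 to 19, defined as those with at least 2 other peaks of their list within 100 kb, had medians of 512 bp (219 peaks) and 677.5 bp (302 peaks). Isolated peaks of the same chromosomes had medians of 458 bp (824 peaks) and 604 bp (1679 peaks). The crowded stretches of chromosome X, at 3 to 5 and 23 to 33 Mb, had medians of 530.5 bp and 768.5 bp, close to those of the chromosome 4 stretch.

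**Figure D3:**
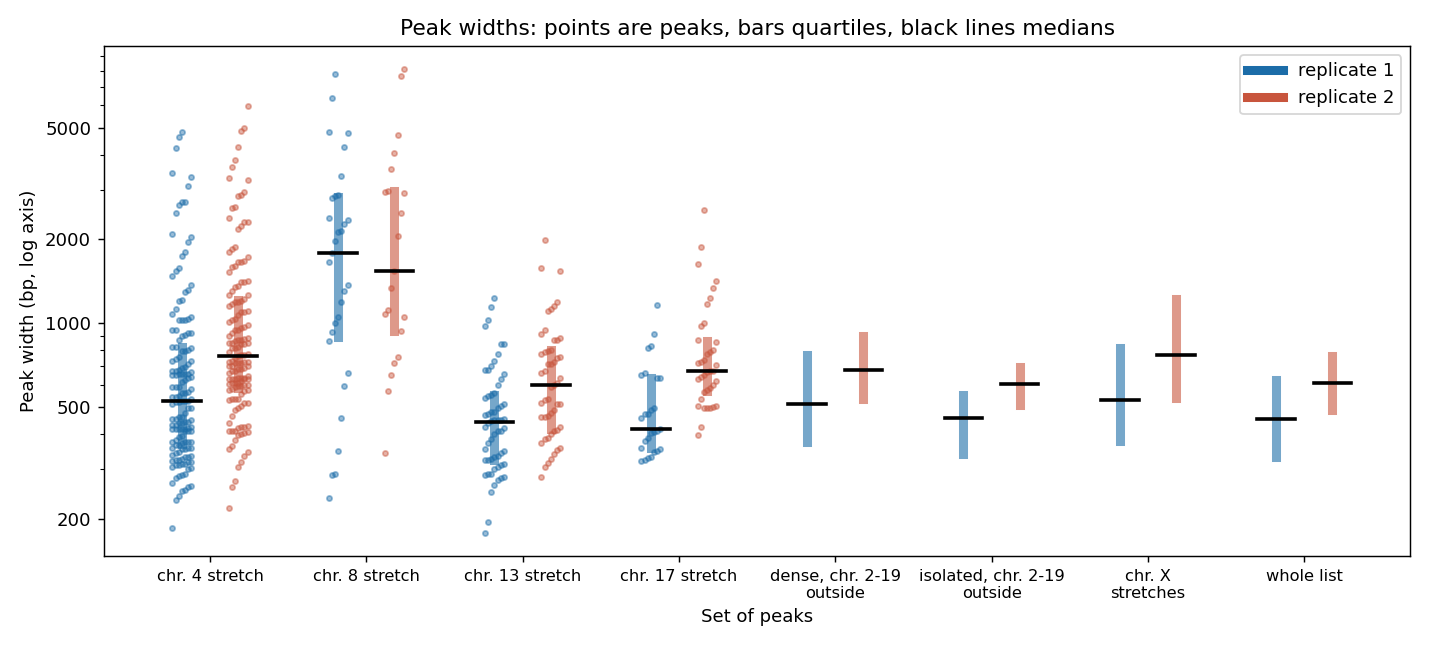
Peak widths (bp, log axis) by set of peaks and replicate, with points for the single peaks of the 4 stretches, bars from the lower to the upper quartile and black lines at the medians. The chromosome 8 medians, 1777 and 1542 bp, lie above the upper quartiles of the sets shown without points.

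Summed over peaks, members of replicate 1 covered 232 kb and members of replicate 2 covered 281 kb, which was 14.0 and 10.5% of the base pairs in the lists. How densely the peaks filled their island differed by stretch. On chromosome 8 they covered 19.4 and 14.9% of the span from the first to the last peak. On chromosome 17 they covered 5.36% in replicate 1 and 13.5% in replicate 2. On chromosome 4 they covered 5.60 and 7.46%, and on chromosome 13 they covered 1.99 and 2.37%. The chromosome 17 spans were each stretched by a single outlying peak. In replicate 1 the peak starting at 38892557 lay 111.65 kb by centres from its neighbour. In replicate 2 the peak starting at 38548850 lay 85.5 kb from its neighbour. Coverage of chromosome 17 without these peaks was not computed.

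The score is the authors' own value for each peak, taken to be the caller's p-value on a scale of -10 log10, and it is used to describe and rank peaks within a list. Scores of the lists are set side by side below, and no difference in binding between replicates is read from them. On chromosome 8 the median score was 127 in replicate 1 and 147 in replicate 2, beside list medians of 80.0 and 88.7. Scores of at least 200 were reached by 11 of 31 and 7 of 21 of its peaks, beside 9.85 and 18.4% of the lists. Scores of at least 500 were reached by 5 and 4 of them, beside 1.24 and 4.76%. On chromosome 4 the medians, 82.1 and 89.4, were near those of the lists, and 14 of 151 and 26 of 147 peaks reached 200. At least 500 was reached by 4 and 8 of its peaks (2.65 and 5.44%). Isolated peaks of chromosomes 2 to 19 outside the stretches reached it in 1.94 and 6.67% of cases. Chromosome 4 held the best-ranked members of all, at rank 4 of 2892 in replicate 1 and rank 15 of 3593 in replicate 2.

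Peaks of chromosome 13 scored low, with medians of 70.8 and 81.1, and 2 of 60 and 3 of 51 reached 200. On chromosome 17 the median was 64.8 in replicate 1, with 0 of 27 peaks reaching 200, and 89.7 in replicate 2, with 5 of 38 reaching it. The best chromosome 17 peak ranked 326 in replicate 1 and 286 in replicate 2. Crowding thus came with high scores on chromosome 8, with list-like ones on chromosome 4, and with list-like or low ones on chromosomes 13 and 17.

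Width and score were positively related over the peaks of every stretch, least closely on chromosome 8. There, Spearman's rho between width and score over peaks was 0.39 in replicate 1 (31 peaks, Pearson's r 0.34) and 0.33 in replicate 2 (21 peaks, r 0.37). On chromosome 17 rho was 0.81 (27 peaks, r 0.93) and 0.86 (38 peaks, r 0.92), on chromosome 4 it was 0.68 (151 peaks, r 0.70) and 0.72 (147 peaks, r 0.70), and on chromosome 13 it was 0.57 (60 peaks, r 0.66) and 0.81 (51 peaks, r 0.85). The peaks share a library, and the caller sets both quantities from the same reads. Some chromosome 8 peaks were very wide at scores below the median of their list. In replicate 1 a peak of 6385 bp from 19718699 to 19725083 scored 52.4 and had no partner in replicate 2. In replicate 2 a peak of 7653 bp from 19943438 to 19951090 scored 67.5 and spanned 2 peaks of replicate 1. These peaks were picked after their values were seen. Wide peaks of low score were not limited to chromosome 8. Peaks of at least 2000 bp that scored below 100 numbered 3 in each list there, and 15 and 23 in the whole lists.

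Sharing between the lists depended on how strictly a partner was defined. With an overlap of at least 1 bp, 175 of 269 members of replicate 1 had a partner (65.1%, exact binomial 95% interval 59.0 to 70.7%), beside 66.1% of the whole list. In replicate 2, 159 of 257 did (61.9%, 55.6 to 67.8%), beside 50.01% of the whole list. On chromosomes 2 to 19 outside the stretches the shares were 73.3% of 1043 peaks and 38.0% of 1981 peaks. The share of members thus lay below that of the other peaks of chromosomes 2 to 19 in replicate 1 and above it in replicate 2. Peaks of chromosome 1 are not in that set.

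When a partner had to overlap at least 50% of both peaks, the share of members was 40.5% in replicate 1 and 42.4% in replicate 2, beside 52.2 and 42.0% of the whole lists. Over the same change, the other peaks of chromosomes 2 to 19 went from 73.3 to 66.4% and from 38.0 to 34.98%. Among isolated ones the shares were 72.0 and 33.7%. Crowded peaks elsewhere on those chromosomes went from 64.4 to 45.7% and from 51.3 to 42.4%, and the chromosome X stretches from 65.9 to 35.9% and from 66.4 to 43.9%. In value, tightening the definition thus took more from crowded peaks, inside the stretches and outside them, than from isolated ones.

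Chromosome 17 showed the widest gap between the 1 bp and the 50% definitions. Its peaks had partners by 1 bp in 21 of 27 cases in replicate 1 (77.8%, 57.7 to 91.4%) and in 21 of 38 in replicate 2 (55.3%, 38.3 to 71.4%). Only 7 in each list had a partner over 50% of both, and 7 in each had a partner centre within 200 bp. On chromosome 8, 23 of 31 (74.2%, 55.4 to 88.1%) and 18 of 21 (85.7%, 63.7 to 97.0%) overlapped by 1 bp, 14 of each list overlapped over 50% of both, and 10 of each had centres within 200 bp. On chromosome 4 the 1 bp counts were 101 of 151 (66.9%, 58.8 to 74.3%) and 92 of 147 (62.6%, 54.2 to 70.4%), with 67 of each over 50% of both and 55 with centres within 200 bp. Chromosome 13 had the lowest share by 1 bp in replicate 1, 30 of 60 (50%, 36.8 to 63.2%), and in replicate 2 had 28 of 51 (54.9%, 40.3 to 68.9%). There 21 peaks of each list had a partner over 50% of both, and 24 had a partner centre within 200 bp.

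The 1 bp shares were also set beside the share of each island that the peaks of the other list covered. In replicate 2 the shares with a partner ranked in the order of chromosomes 8, 4, 17 and 13, which was also the order of the shares of each island covered by replicate 1 (19.4, 5.60, 5.36 and 1.99%). For replicate 1 the orders differed only in the first places, where chromosome 17 came before chromosome 8 by partnered share and after it by the share that replicate 2 covered (13.5 and 14.9%). These orders cover only 4 stretches and rest on near-ties. Chromosomes 17 and 13 had partnered shares of 55.3 and 54.9% in replicate 2, and chromosomes 4 and 17 had covered shares of 5.60 and 5.36%. The covered share of chromosome 17 also hangs on 1 outlying peak in each list, so no link is read from the orders. The part of chance contact in the 1 bp overlaps was not tested.

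**Figure D4:**
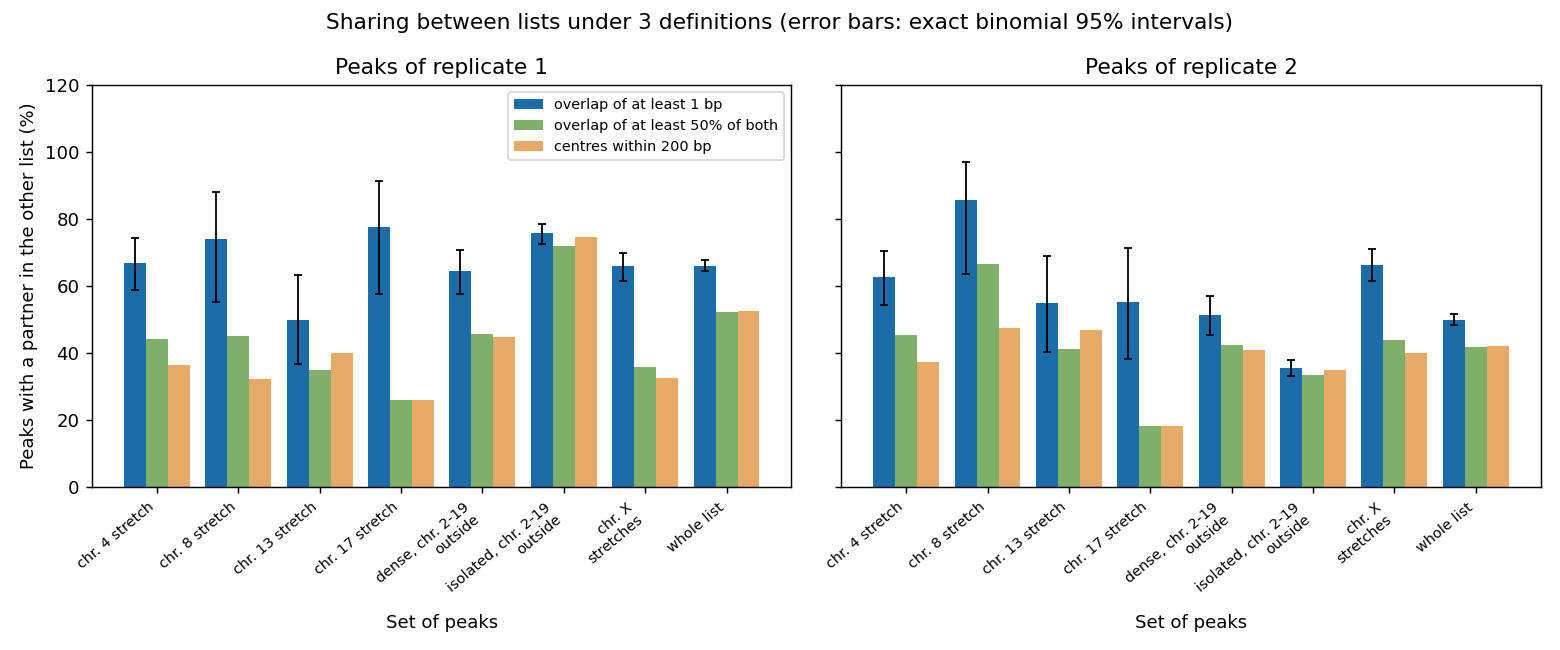
Percent of peaks with a partner in the other list, under 3 definitions, for each stretch and for other sets of peaks, with replicate 1 on the left and replicate 2 on the right. Isolated peaks keep nearly the same share under all 3 definitions (75.7, 72.0 and 74.6% in replicate 1), while the chromosome 17 stretch goes from 77.8 to 25.9% in replicate 1.

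Over the 4 stretches together, the share with a partner was higher in value at high scores than at low ones. In replicate 1, 55 of 122 members with a score from 50 to 75 had a partner, and 26 of 27 with a score of at least 200 did. In replicate 2 the counts were 44 of 102 and 39 of 41. For scores from 50 to 75 the shares were thus 45.1 and 43.1% in the stretches. Over the whole lists they were 45.9 and 30.1% in that class, and on chromosomes 2 to 19 outside the stretches they were 54.2 and 12.3%. At scores of at least 200 the members' shares, 96.3 and 95.1%, were near the 99.3 and 91.2% of the whole lists. On chromosome 4 all 14 and all 26 peaks with such scores had a partner. Chromosome 17 in replicate 2 did not follow the pattern, with partners for 7 of 13 peaks scoring from 50 to 75, 4 of 11 from 75 to 100, 7 of 9 from 100 to 200 and 3 of 5 at 200 or more.

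The distance from unpartnered members to the other list varied. The gap to the nearest peak of the other list had a median of 3183 bp for the 50 such peaks of replicate 1 on chromosome 4 and of 3119 bp for the 55 of replicate 2. All 3 unpartnered peaks of replicate 2 on chromosome 8 lay within 1 kb of a peak of replicate 1. Of the 8 unpartnered peaks of replicate 1 there, 1 lay within 1 kb of a peak of replicate 2, and their median gap was 5780.5 bp. The highest-scoring unpartnered peak of replicate 1 was on chromosome 8, from 19872690 to 19874833 (2144 bp, score 336), and it lay next to the partnered peak of 7759 bp that ended at 19872648. In replicate 2 it was on chromosome 17, from 38730775 to 38732114 (1340 bp, score 220.1). The highest ones elsewhere in replicate 1 scored 143 on chromosome 4 (146640618 to 146641362), 126 on chromosome 13 (65641996 to 65643025) and 183 on chromosome 17 (38667733 to 38668889). In replicate 2 they scored 144 on chromosome 4 (146988874 to 146989715), 94.9 on chromosome 8 (19688315 to 19689856) and 194 on chromosome 13 (66896833 to 66897779).

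Overlapping peaks of the lists merged into 151 shared regions, 87 on chromosome 4, 18 on chromosome 8, 27 on chromosome 13 and 19 on chromosome 17. Of these, 130 held 1 peak of each list. A shared region contained several peaks of replicate 1 in 18 of 151 cases (11.9%) and several peaks of replicate 2 in 7 (4.64%). On chromosomes 2 to 19 outside the stretches the values were 12 of 752 (1.60%) and 1 of 752 (0.133%). Over the 1750 shared regions of the whole series they were 126 (7.20%) and 40 (2.29%), which lie between the other values in both lists. A region with several peaks of a list needs close peaks, and density chose the stretches. Outside them, 824 of 1043 and 1679 of 1981 peaks of chromosomes 2 to 19 were isolated. Crowded peaks there were not counted apart, so no contrast is read from these shares. In regions with 1 peak of each list, the centres were a median of 93.5 bp apart in the stretches and 36.5 bp apart on chromosomes 2 to 19 outside them, and on chromosome 17 they were 210.5 bp apart. Peaks of replicate 2 were a median of 1.32 times as wide as their partners on chromosome 4, 1.03 times on chromosome 8, 1.28 times on chromosome 13 and 1.54 times on chromosome 17. That ratio was 1.30 over the whole series and 1.38 on chromosomes 2 to 19 outside the stretches.

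The strongest shared regions of each stretch show these contrasts. On chromosome 4 the first ran from 145036318 to 145040593 (4276 bp), a single peak in each list, with scores of 1231 in replicate 1 and 1388 in replicate 2. The second, from 146017355 to 146026451, merged 4 peaks of replicate 1 and 3 of replicate 2 into 9097 bp and scored 866 and 1504. The third, near the upper end, spanned 3620 bp from 146881338 to 146884957 and scored 1004 and 975.

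On chromosome 8 the first shared region ran from 19689904 to 19698021. Replicate 2 listed it as a single peak of 8093 bp, and replicate 1 split it into 4 peaks that together spanned 7397 bp. Their best scores were 809.7 and 814. The other leading regions there were neighbours, from 19755036 to 19757743 (scores 735 in replicate 1 and 501 in replicate 2) and from 19751392 to 19754937 (411 and 821), and their order by score was opposite in the lists. A further region held the widest peak of replicate 1. It scored 602 there and 55.1 in replicate 2, where a peak of 4051 bp from 19864043 to 19868093 overlapped it.

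On chromosome 13 the leading regions lay close together from 66531937 to 66533508 (scores 419 and 281) and from 66534959 to 66536447 (209.8 and 182). The third, from 65622777 to 65625417, merged 3 peaks of replicate 1 and 1 of replicate 2 and scored 139 and 307. On chromosome 17 the leading regions ran from 38640083 to 38641202 (126 and 179), from 38669484 to 38672013 (104 and 351) and from 38725754 to 38727382 (162 and 158). The one that began at 38669484 was 639 bp wide in replicate 1 and 2530 bp in replicate 2.

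Scores of shared regions ran together between the lists most closely on chromosome 4, where Spearman's rho was 0.65 and Pearson's r 0.90 over 87 regions. On chromosome 8 the values were 0.59 and 0.61 over 18 regions, and on chromosome 13 they were 0.56 and 0.66 over 27. On chromosome 17 they were 0.34 and 0.21 over 19 regions, all of them with a score below 200 in replicate 1. Regions of a stretch share their libraries and cell culture conditions, and with so few on chromosomes 8 and 17 the values are descriptions only. Both lists scored at least 200 in 12 regions of chromosome 4, 7 of chromosome 8, 1 of chromosome 13 and 0 of chromosome 17. Together these were 20 of the 151 regions of the stretches. The whole series had 229 such regions of 1750, and chromosomes 2 to 19 outside the stretches had 131 of 752.

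**Figure D5:**
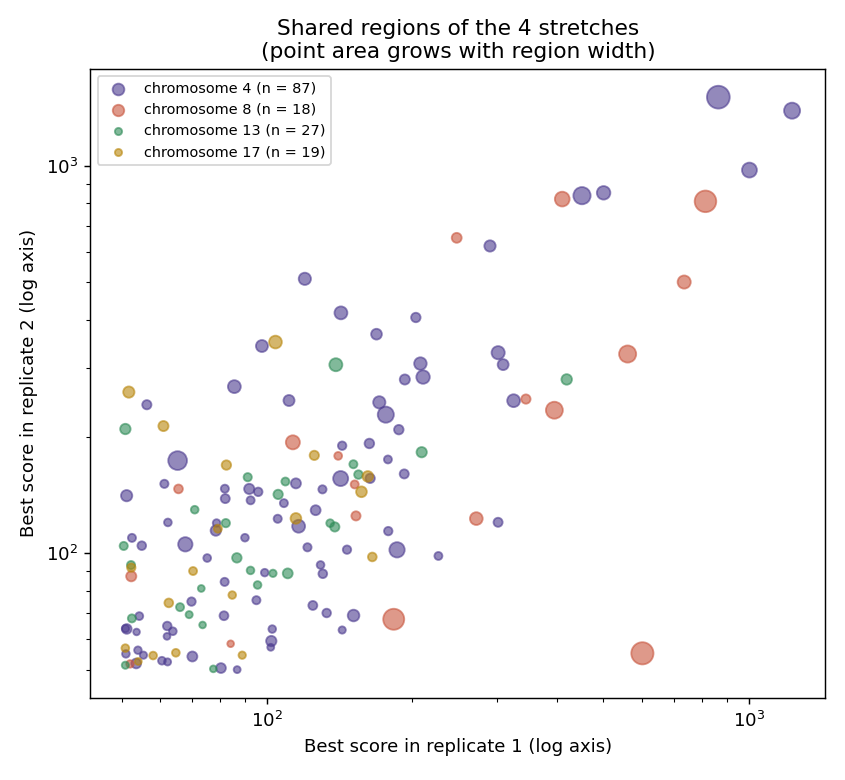
Best score of each shared region in replicate 1 (horizontal) and replicate 2 (vertical), both on log axes, coloured by stretch, with point area growing with region width. The highest points are on chromosome 4 (1231 and 1388, and 866 and 1504), and a wide chromosome 8 region at 602 and 55.1 lies at the lower right.

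Crowded peaks were also listed on unplaced sequence assigned to chromosomes 4 and 8. That of chromosome 8 held 32 peaks of replicate 1 and 24 of replicate 2, with median widths of 521.5 bp and 592 bp, below those of the chromosome 8 stretch. By 1 bp, 23 of the 32 (71.9%, 53.3 to 86.3%) and 22 of the 24 (91.7%, 73.0 to 99.0%) had a partner, and 19 of each list had one over 50% of both. That of chromosome 4 held 11 peaks of replicate 1, all with a partner, and 13 of replicate 2, of which 11 had one. Whether these sequences are copies of the placed stretches was not tested.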

How the data were processed

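Each ChIP replicate had a deposited peak list of its own. Per the submitters' processing notes, bcl2fastq 2.15.0, Bowtie2 and MACS 1.4 were used with the mm9 build, and the notes give no roles or settings. Whether the input served as a control is not stated there. The deposited score of each peak was used to describe and rank peaks within a list. The lists carry no counts, so depth is unknown.

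Members were peaks whose centre lay within the 4 stretches. The stretches and the measures were chosen with earlier results of these data known. A partner was a peak of the other list that overlapped by 1 bp or more, and linked overlaps were merged into shared regions. Positions count from 1. Shares carry exact binomial (Clopper-Pearson) 95% intervals. Regions named are, per stretch, the 3 shared regions with the best score ranks, judged by the poorer of the pair, the best unpartnered and the widest peaks of each list, and peaks next to the bounds. Blocks are series of 100 kb windows with at least 5 peaks in both lists, a definition chosen after seeing the data. Alternatives changed the definition of a partner, the score minimum (100), the distance measure, the joining of near peaks and the bounds. Overlap, merging and spacing code was tested on simulated lists. Python 3.11.15, NumPy 2.4.6, SciPy 1.17.1, pandas 2.3.3 and matplotlib 3.10.9 were used.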

Additional observations from a re-analysis of the deposited data

How the results depend on the processing

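Values here are means of the 2 lists' own medians or shares, set against the SD between the lists, and draw no comparison of scores between lists. Of 84 alternative values, 45 stayed within that SD and 39 moved further, and the 30 that used 1 list alone all stayed within it, which their construction ensures. Leaving out the chromosome 4 stretch, chosen after seeing the data, moved no value for the 4 stretches together beyond it. For all 4 stretches and for chromosomes 4, 8, 13 and 17 in turn, partnered shares were 41.5, 44.97, 55.9, 38.1 and 22.2% with an overlap of 50% of both peaks and 36.5, 36.9, 39.9, 43.5 and 22.2% with centres within 200 bp, where the main values were 63.5, 64.7, 80.0, 52.5 and 66.5%. With a minimum score of 100 in both lists they were 67.5% (all 4), 69.2% (chromosome 4) and 59.8% (chromosome 13). The lists moved in opposite directions there, where a partner scoring below 100 no longer counted. Replicate 1 went from 65.1, 66.9 and 50% to 73.7, 77.2 and 66.7%. Replicate 2 went from 61.9, 62.6 and 54.9% to 61.3, 61.2 and 52.9%. With partners of any score, members of all 4 stretches scoring from 100 to 200 had shares of 87.5 and 81.4%. At the minimum of 100, median widths were 1004, 987.5, 2091, 753.5 and 950.5 bp. Median distances were 7396, 5890.4, 5570.6, 32094 and 6163 bp, as fewer peaks entered. The last is a mean of 9962 bp in replicate 1 and 2363.5 bp in replicate 2. Joining peaks across gaps of at most 1 kb gave widths of 777 bp (all 4), 830 bp (chromosome 4), 3864 bp (chromosome 8) and 922.75 bp (chromosome 17). Gaps between peak ends had medians of 3686 bp (all 4), 3612.5 bp (chromosome 4), 999.75 bp (chromosome 8), 8296 bp (chromosome 13) and 2101 bp (chromosome 17), as widths were taken off, so chromosome 8 and not 17 had the closest peaks. Among partnered peaks the median score was 110.7 (all 4), 111 (chromosome 4), 159 (chromosome 8) and 96.4 (chromosome 13). Only chromosome 8 moved with the bounds. Moved outward by 500 kb they gave a median width of 1325 bp and a distance of 4284 bp, and moved inward by 100 kb they gave 1971 bp and 3615 bp. No paired analysis was possible because the lists belong to 1 group. Unknown depth limits any reading of peaks found in 1 list only.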
